A study of Zea mays with 6 samples.

Results

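The bundle sheath decarboxylases and Rubisco genes were followed in leaf RNA of a maize line that lacks the protein phosphatase ZmPP2C45. The set was given as 5 gene identifiers: the decarboxylases NADP-malic enzyme me3 (Zm00001d000316) and PEP carboxykinase (PEPCK, Zm00001d028471), the Rubisco small subunits ssu1 (Zm00001d052595) and ssu2 (Zm00001d004894), and Rubisco activase (RCA, Zm00001d048593). Of these, 4 were analysed, among 45953 features in the count table, and all 4 passed the filter on low counts that left 21206 features for testing. NADP-malic enzyme was not analysed here. The names came with the list of identifiers and could not be checked, because neither the counts nor the RefSeq gene table used here pairs a nuclear identifier with a name.

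Leaves of 2-week-old seedlings were sequenced as poly(A)-selected RNA. The libraries were 3 of PP2CKO, a genome-edited ZmPP2C45 knockout made in inbred KN5585, and 3 of unedited KN5585, labelled WT. The labels give 1 name for the edited line and state neither the edit nor whether each numbered replicate is its own plant or a pool. The p-values therefore reflect library-to-library spread, part of which may be technical. The transcript of ZmPP2C45 and the markers of leaf cell types were not checked, since nuclear identifiers carried no names. PP2CKO libraries held 16314657 to 20502449 counts and WT libraries 15923668 to 16368195.

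In the C4 leaf of maize, mesophyll cells fix carbon dioxide into a C4 acid that moves to the bundle sheath cells around the veins. There a decarboxylase, chiefly NADP-malic enzyme in the chloroplast with a contribution from PEP carboxykinase in the cytosol, releases the carbon dioxide again. Rubisco, built of plastid-encoded large subunits and nuclear-encoded small subunits, fixes it in the Calvin cycle, and Rubisco activase removes inhibitory sugar phosphates from Rubisco's active sites.

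Transcripts of both Rubisco small subunits were higher in leaves of the knockout, by 2.47-fold for ssu1 (95% interval 1.74 to 3.50) and 2.43-fold for ssu2 (95% interval 1.80 to 3.28). Both passed the edgeR quasi-likelihood test over all tested features. Rubisco activase was 1.59-fold the WT level (95% interval 1.19 to 2.13) with adjusted p = 0.0575 and did not pass the threshold of 0.05. PEP carboxykinase was 1.23-fold the WT level, with an interval of 0.898 to 1.67 that includes 1. So 2 of the 4 genes were called higher, where 5.15% of all tested features were. None of the 4 was called lower in edgeR, where 0 were also lower at an unadjusted p below 0.05, nor in DESeq2 or limma voom, and the share of all tested features called lower was 2.08%.

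The plot of scaled values by library shows the groups apart for both small subunits and for activase, and overlapping for PEP carboxykinase. Thus 3 of the 4 genes were higher in PP2CKO without overlap, where 14.8% of all tested features were. Values are CPM, the share of a library's counts on the usual per-million scale, after trimmed mean of M values (TMM) scaling, which sets the bulk of tested features level between libraries. Fold changes are PP2CKO over WT.

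**Figure D1:**
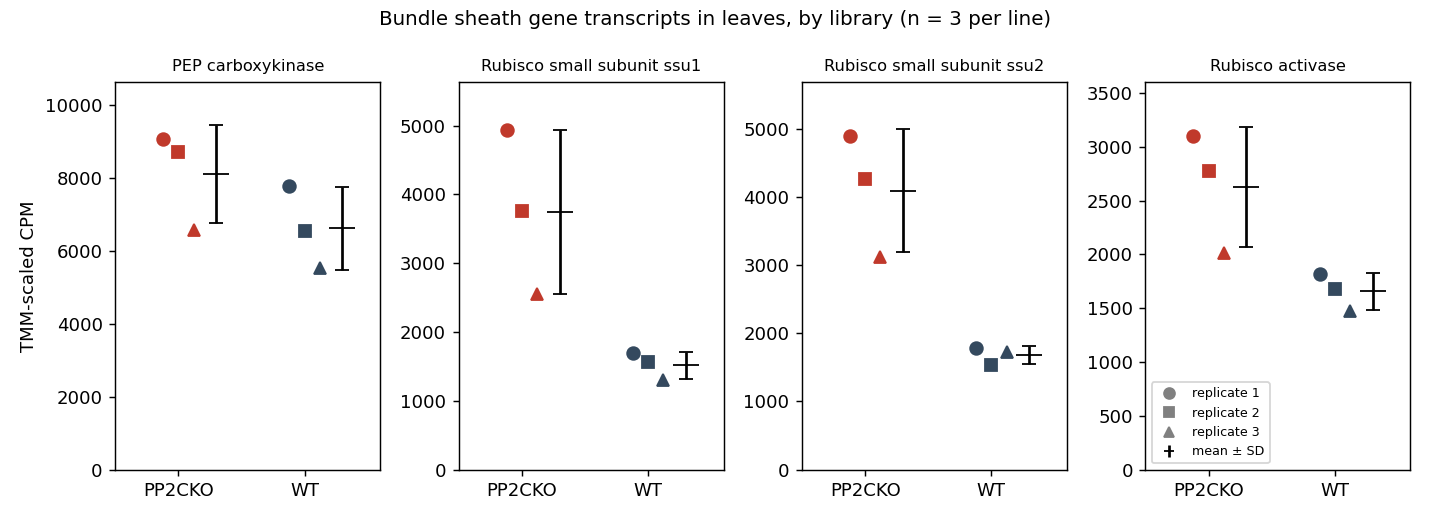
TMM-scaled CPM (y axis, from 0) of 4 bundle sheath genes in each of 3 PP2CKO and 3 WT libraries, with symbols for replicates and bars for the mean ± SD. For ssu1, ssu2 and Rubisco activase every PP2CKO library lies above every WT library, while PEP carboxykinase overlaps, with PP2CKO replicate 3 at 6584 CPM below WT replicate 1 at 7793 CPM.

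PEP carboxykinase converts oxaloacetate to phosphoenolpyruvate and carbon dioxide. Its transcript stood at 9061, 8718 and 6584 CPM in PP2CKO replicates 1 to 3, against 7793, 6558 and 5524 CPM in WT replicates 1 to 3. The lowest PP2CKO library fell within the WT range, so the groups overlapped. PP2CKO averaged 8121 ± 1342 CPM and WT 6625 ± 1136 CPM (SD, n = 3 each), and the log2 fold change of 0.29 ± 0.21 SE did not pass the edgeR test (adjusted p = 0.429). This gene alone made up 0.749% ± 0.0903 of a PP2CKO library and 0.709% ± 0.0695 of a WT library (SD, n = 3 each). It ranked 10 among tested features by scaled counts, a rank that also depends on transcript length.

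The small subunits assemble with the large subunits into the Rubisco holoenzyme. The ssu1 transcript stood at 4931, 3753 and 2551 CPM in the PP2CKO libraries, against 1694, 1559 and 1305 CPM in the WT libraries. The lowest PP2CKO value was 1.51 times the highest WT value. The log2 fold change was 1.30 ± 0.23 SE (edgeR adjusted p = 0.00698). The PP2CKO libraries were the more uneven, with a coefficient of variation of 31.8% against 13.0% in WT, and replicate 1 held 1.93 times the level of replicate 3.

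The ssu2 transcript stood at 4898, 4258 and 3126 CPM in the PP2CKO libraries, against 1791, 1534 and 1731 CPM in the WT libraries. The groups did not overlap here either, and the lowest PP2CKO value was 1.75 times the highest WT value. The log2 fold change was 1.28 ± 0.20 SE (edgeR adjusted p = 0.00356).

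The small subunit genes of a plant are closely similar, so reads could be split between ssu1 and ssu2 in a way the counting decides. Summed to 1 feature, they stood at 9828, 8011 and 5677 CPM in PP2CKO and at 3485, 3093 and 3036 CPM in WT. The sum was 2.45-fold higher in PP2CKO (95% interval 1.76 to 3.39, edgeR adjusted p = 0.0053), so the call did not rest on the split. Both genes together made up 0.719% ± 0.150 of a PP2CKO library and 0.345% ± 0.00635 of a WT library (SD, n = 3 each).

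Rubisco activase is an ATPase that keeps Rubisco in its working state. Its transcript stood at 3096, 2778 and 2013 CPM in the PP2CKO libraries, against 1818, 1677 and 1473 CPM in the WT libraries. All 3 PP2CKO values lay above the WT range, the lowest by 1.11 times the highest WT value. The log2 fold change was 0.67 ± 0.20 SE, with an unadjusted p of 0.0047 and an adjusted p of 0.0575 in edgeR. DESeq2 called the gene higher (adjusted p = 0.00397) and limma voom did not (adjusted p = 0.0576). Without PP2CKO replicate 3, edgeR called it (log2 fold change 0.83, adjusted p = 0.0298), while without any 1 of the other 5 libraries it did not, with edgeR adjusted p-values from 0.0869 to 0.176.

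PP2CKO replicate 3 was the lowest library of its line for all 4 genes, by 0.29 to 0.50 log2 units below the mean of its line. It was also the deepest library, and the part of depth in this was not tested. Replicate 3 was likewise lowest in WT for PEP carboxykinase, ssu1 and activase, by 0.16 to 0.25 log2 units, but not for ssu2, where it lay 0.04 above the mean. In whole leaves a change in the number of bundle sheath cells and a change in RNA per cell cannot be told apart.

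Scaling moved the sizes but not the order of the groups for the Rubisco genes. TMM factors were 0.869 to 0.982 in PP2CKO and 0.995 to 1.15 in WT, so TMM raised PP2CKO values relative to library size alone. With library size alone the tested features had a median log2 fold change of -0.23, against -0.01 with TMM. The small subunits were then 2.10-fold higher for ssu1 (edgeR adjusted p = 0.00278) and 2.07-fold higher for ssu2 (edgeR adjusted p = 0.00128), where 3.21% of all features were called higher and 7.56% lower. Activase stood at 1.36-fold the WT level (edgeR adjusted p = 0.0576), still without overlap, and PEP carboxykinase at 1.06-fold (edgeR adjusted p = 0.726). The plot of fold changes by setting gives these values beside the other alternatives.

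**Figure D2:**
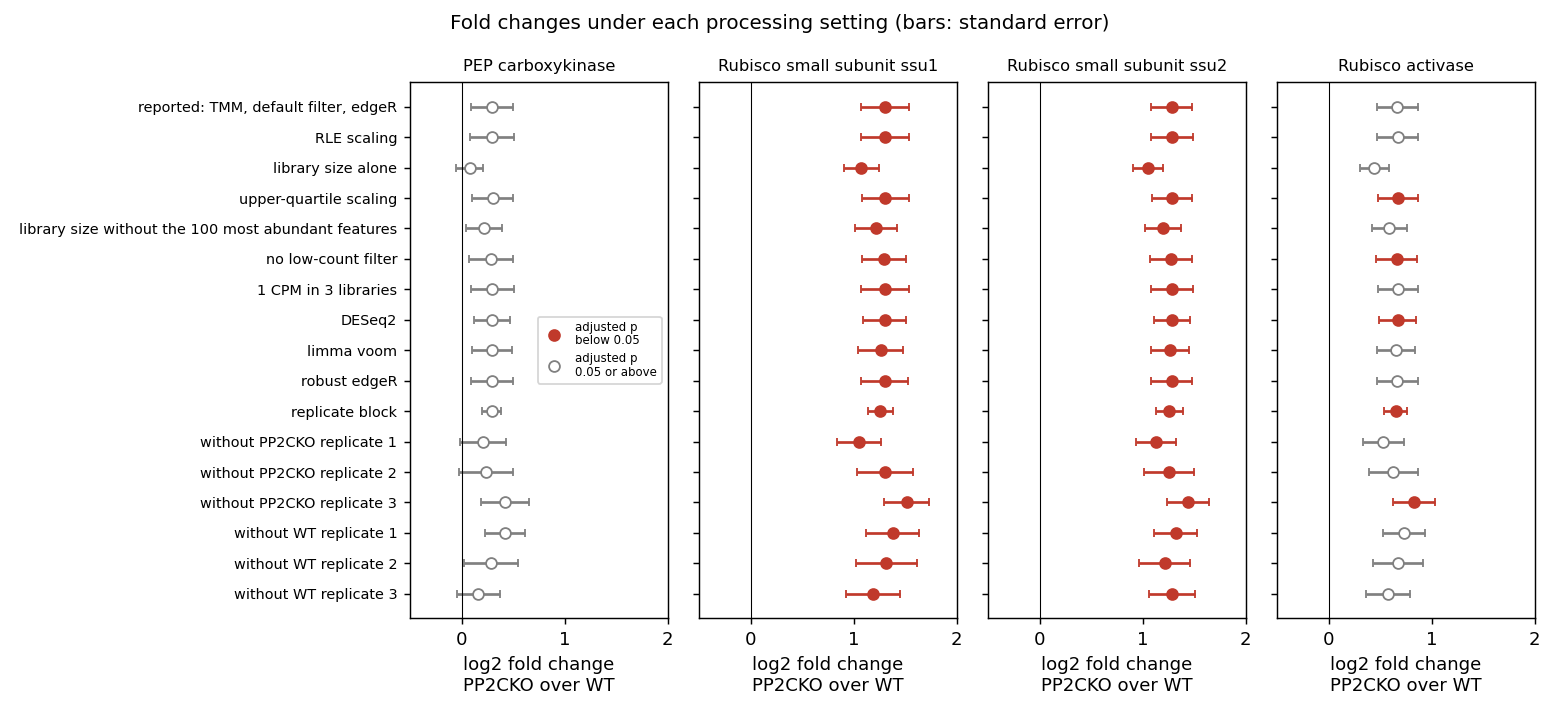
Log2 fold change of PP2CKO over WT (x axis) with its standard error for each gene under the reported fit and 16 other settings (y axis), filled where the adjusted p was below 0.05. The small subunits are filled in every setting shown and PEP carboxykinase in none, while Rubisco activase is filled in 5 of the 16 other settings.

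Ratios between genes within a library do not depend on the scaling. Activase counts per small subunit count (ssu1 and ssu2 summed) were 0.315, 0.347 and 0.355 in the PP2CKO libraries, against 0.522, 0.542 and 0.485 in the WT libraries. The groups did not overlap, with mean ratios of 0.339 ± 0.021 for PP2CKO and 0.516 ± 0.0289 for WT (SD, 3 libraries each). The ratio in PP2CKO was thus 0.656 times that in WT, at an exact two-sided permutation p = 0.1, the smallest that 3 against 3 libraries allow (0.15 adjusted over 3 ratios).

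PEP carboxykinase counts per small subunit count were 0.922, 1.09 and 1.16 in the PP2CKO libraries, against 2.24, 2.12 and 1.82 in the WT libraries. This ratio, chosen after seeing the data in place of the planned ratio to NADP-malic enzyme, was 0.513 times as high in PP2CKO as in WT (exact two-sided permutation p = 0.1, adjusted 0.15). Both ratios were thus lower in each PP2CKO library than in each WT library, in a design whose exact p cannot go below 0.1. They share the summed small subunits as denominator, so they are independent neither of each other nor of the rise in that sum.

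The balance of the small subunit copies did not separate the lines. Counts of ssu2 per ssu1 count were 0.993, 1.14 and 1.23 in PP2CKO, against 1.06, 0.984 and 1.33 in WT (exact two-sided permutation p = 1). As a share of all small subunit counts, ssu2 ran from 49.8% (exact 95% interval 49.6 to 50.1) to 55.1% (54.8 to 55.4) in PP2CKO and from 49.6% (49.18 to 50.03) to 57.0% (56.6 to 57.4) in WT. The spread between libraries of a line was thus wider than counting error, which is all these intervals cover.

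**Figure D3:**
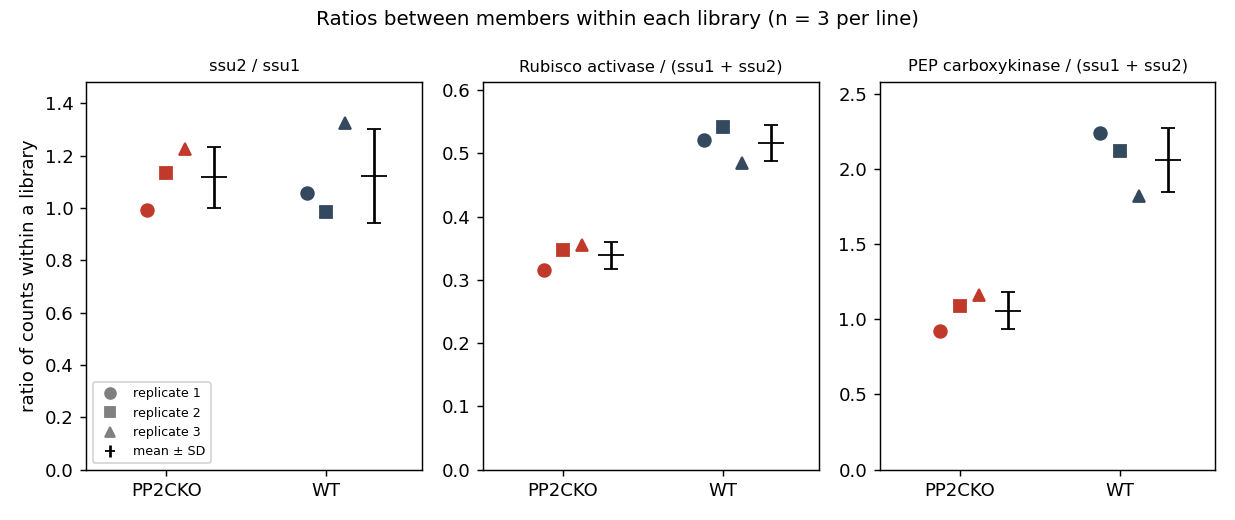
Ratio of counts between genes within each library (y axis, from 0) for 3 PP2CKO and 3 WT libraries, with the mean ± SD. The ssu2 to ssu1 ratio overlaps between the lines, while both ratios to the summed small subunits are lower in every PP2CKO library than in every WT library.

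Abundant transcripts were often higher in this knockout, and the Rubisco genes belong among them. Apart from the members, 52 tested features had a mean scaled count at least that of activase, the lowest member. Of these, 22 or 42.3% were called higher and 1 or 1.92% lower, and 67.3% were higher without overlap, so 2 calls among 4 members lie near the share of equally abundant features. With library size alone, 51.9% of the 52 were called higher and 7.69% lower. Their median log2 fold change was 0.66, against 0.97 for the 4 members and -0.01 for all tested features. The small subunits were nevertheless at the upper end, since 1 of the 52 exceeded the log2 fold change of ssu1 and 1 that of ssu2. Activase was exceeded by 25 of the 52 and PEP carboxykinase by 42. Among all 21206 tested features, 784 had a larger log2 fold change than ssu1 and 811 a larger one than ssu2. This set of abundant features was defined after seeing the data.

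**Figure D4:**
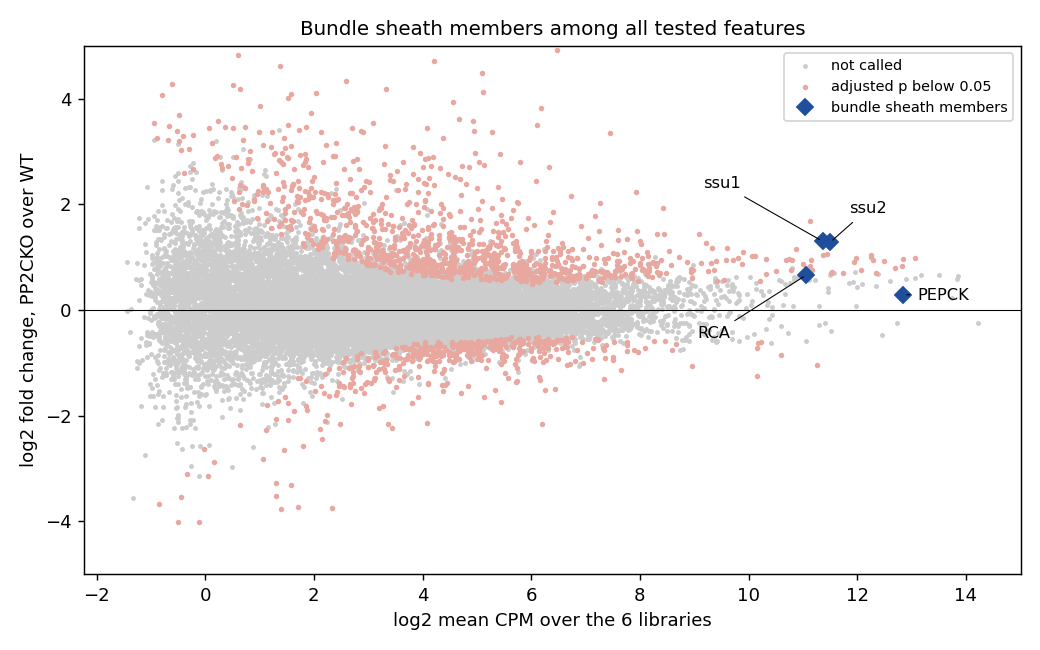
Log2 fold change of PP2CKO over WT (y axis) against log2 mean CPM (x axis) for 21206 tested features, with the 4 members as diamonds and called features in pink; 13 features beyond a log2 fold change of 5 in either direction lie outside the axis. The small subunits sit near the top of the abundant features and PEP carboxykinase close to 0.

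The partner of the small subunits, the plastid gene rbcL for the Rubisco large subunit, is listed at 0 in all 6 libraries. So is psbA, a core photosystem II gene that leaf photosynthesis uses, so the 0 was not read as a measured absence. The libraries were made by poly(A) selection and the counting method is not known, and the reason for the 0 was not tested. Of 24 rows for the 23 plastid photosynthesis genes looked up, 13 are listed at 0 in every library. The highest, ndhD of the NADH dehydrogenase-like complex, had 18 counts in PP2CKO and 21 in WT, and 0 of the 24 passed the filter for testing. The nuclear partner genes of the C4 and Calvin cycles and the leaf cell type markers were looked up under 35 symbols, of which 18 stood in the RefSeq table and 0 could be tied to a count-table identifier, so the rest of the pathway was not analysed here.

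Features numbered within 2 of a member were looked up, since tandem copies could share its reads. Of 13 such features with a row, 7 were tested. edgeR called 0 of the 7 in either direction, with 0 at an unadjusted p below 0.05, and DESeq2 and limma voom also called 0. With 5.15% of all tested features called higher and 2.08% lower, a count of 0 among 7 lies near the background. Among the untested features, Zm00001d004892, numbered 2 before ssu2, had 6, 11 and 13 counts in the PP2CKO libraries, against 0, 3 and 1 in the WT libraries. It was singled out after its values were seen. The feature numbered just before activase, Zm00001d048592, averaged 104 ± 33.1 CPM over the PP2CKO libraries and 115 ± 2.88 CPM over the WT libraries (SD, n = 3 each). Its log2 fold change was -0.14 ± 0.21 SE (edgeR adjusted p = 0.74).

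The features whose pattern over the 6 libraries lay closest to the members' mean pattern were Zm00001d014349 and Zm00001d002815, for which no name was available. They differed from it by a root mean square of 0.0453 and 0.0523 log2 units over 6 libraries, against a median of 0.580 for other tested features and 0.111 for activase itself, the nearest member. Zm00001d014349 stood at 742, 611 and 464 CPM in PP2CKO, against 369, 303 and 299 CPM in WT. Zm00001d002815 stood at 585, 498 and 388 CPM in PP2CKO, against 298, 263 and 259 CPM in WT. Both were picked for this likeness, so their difference between the lines is a description.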

How the data were processed

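Raw gene counts for each of the 6 libraries were deposited by the authors, without normalization. Reads cleaned of adaptors and poor bases were mapped to B73 v4 with STAR 2.4.0j, per the labels' protocols. How reads were counted, with which annotation and strand setting, is not given in the sources used here. Overlapping, antisense or closely similar genes may therefore share reads. Both lines were mapped to the genome of another inbred.

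From these counts, features were kept by filterByExpr (minimum count 10, minimum total 15), scaled by TMM and tested with the edgeR 4.0.16 quasi-likelihood test (R 4.3.3); the model held genotype alone. P-values were adjusted by Benjamini-Hochberg over all 21206 features, and a feature was called at an adjusted p below 0.05. Intervals of folds are from the standard error and the total degrees of freedom of the edgeR fit, prior and residual together. DESeq2 1.42.0 and limma 3.58.1 (voom) were alternatives. The procedure was also run on simulated data with 200 changed features, as many higher as lower. That run did not mirror the unequal calls of the real data, and no result here rests on it. Ratios within a library were tested between the lines by an exact permutation test over the 6 libraries.

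The members, lists and tests were chosen with earlier results of these data known. All members were named, together with the 2 features nearest in pattern and rbcL. Identifier neighbours were to be named if called, and 0 were called. Zm00001d004892 and Zm00001d048592 were named outside that rule. Sequences were not used here.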

Additional observations from a re-analysis of the deposited data

How the results depend on the processing

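The small subunits stayed higher in PP2CKO and past the threshold under all 17 alternatives each, with log2 fold changes of 1.05 to 1.51 for ssu1 and 1.05 to 1.44 for ssu2; the highest adjusted p-values were 0.0449 (without WT replicate 3) and 0.0321 (without WT replicate 2). PEP carboxykinase stayed above 0 and short of the threshold in all 16 (log2 fold change 0.08 to 0.42, lowest adjusted p 0.0752). Rubisco activase kept its direction in all 16 (log2 fold change 0.44 to 0.83, adjusted p 0.00397 to 0.176). It passed the threshold with upper-quartile scaling (0.67), no low-count filter (0.66), DESeq2 (0.67) and the replicate block (0.65), and leaving out 1 library gave 0.53 to 0.83. The cause was not tested. The count of members called higher was 2 to 3 and lower 0 throughout.

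Over all features, edgeR called 1092 higher and 442 lower. Scaling by library size gave 680 and 1604, no low-count filter 1672 and 781, and DESeq2 1523 and 689. Library size counted without the 100 most abundant features gave 916 and 687. Fits without 1 library called 339 to 1141 features higher and 116 to 409 lower, from fewer libraries by construction; otherwise the cause was not tested.

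The libraries were not treated as pairs: libraries with equal replicate numbers had correlated deviations of 0.0525, 0.0888 and 0.0847, below the 0.1 set for pairing, although every library correlated best with its own number. The replicate block gave 1323 higher and 537 lower features. Leaving out 1 library moved the log2 ratio of activase to the small subunits between -0.65 and -0.56, that of PEP carboxykinase between -1.05 and -0.87, and that of ssu2 to ssu1 between -0.09 and 0.13. The members had at least 23935 counts in every library. What limited the call of activase was not tested.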
